A study of Mus musculus with 6 samples.

Results

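Transcripts of 8 mouse genes for lymphocyte surface glycoproteins, Cd2, Cd7, Cd44, Cd52, Thy1, Ly6a, Ly6c2 and Ly6e, were compared between 2 genotypes of liver iNKT1 cells. The genes were chosen by name from a list of surface glycoproteins, with earlier results of these data known. They are 8 of the 12942 genes in the deposited expression table. iNKT1 cells are innate-like T cells with an invariant receptor for lipids on CD1d, and they depend on T-bet, the transcription factor encoded by Tbx21. The mutant genotype, called cKOHet in the labels, was Tbx21Cre Ets1F/F Tbx21F/+ Rosa26-YFP+, so it had 2 floxed Ets1 alleles and 1 floxed Tbx21 allele. The control genotype was Tbx21Cre Rosa26-YFP+, with no floxed allele of either gene. Both groups thus carried Cre driven by Tbx21 and a YFP reporter, and cells positive for the CD1d tetramer and for YFP were sorted from liver. Because Cre comes from Tbx21, recombination is limited to cells that have expressed that gene, and the contributions of the floxed Ets1 and floxed Tbx21 alleles cannot be told apart. Each group had 3 libraries, numbered 1, 2 and 4, and the age of the mice is not given in the sources used here. In both groups the replicate 1 column is headed by a pair of codes, so it may be a pool, which the labels do not settle.

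Surface glycoproteins of lymphocytes reach the membrane in several ways. CD2, CD7 and CD44 span the membrane and signal through or bind to partners inside the cell, whereas Thy-1, CD52 and the Ly6 proteins are held in the outer leaflet by a glycosylphosphatidylinositol (GPI) lipid anchor. The Ly6 proteins share a small disulphide-bonded fold, and in the mouse their genes lie in a cluster on chromosome 15 that has expanded by duplication. Ly6C and CD44 are used to mark activated and memory T cells.

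Levels are given as the authors' normalised read counts, which summed to between 4996523 and 5219483 per library, so the original depth is unknown. Ets1, an Ets-family transcription factor, had 462, 596 and 441 normalised counts in cKOHet libraries and 7391, 6255 and 7787 in control libraries, so every cKOHet library was far below every control library. Tbx21 averaged 2206 ± 98.5 in cKOHet libraries and 2568 ± 174 in control libraries (SD, n = 3 each), and did not pass the test (log2 fold change -0.22, limma adjusted p = 0.196). Its groups did not overlap, at 2127 to 2316 in cKOHet libraries and 2434 to 2765 in control libraries. The summed level of 12 iNKT and type 1 lymphocyte markers was 49459 to 53537 in cKOHet libraries and 56884 to 62004 in control libraries, with Cd3d, Cd3e, Cd3g, Cxcr6 and Klrb1c not called. Of the same list, the receptor constant genes Trbc1 (2031 ± 327 in cKOHet libraries and 3452 ± 275 in control libraries) and Trbc2 (2195 ± 273 in cKOHet libraries and 5038 ± 524 in control libraries), Il2rb and Xcl1 were called lower, and Zbtb16 and Nkg7 were called higher (SD, n = 3 each). Markers of ILC2 summed to 1652 to 1793 in cKOHet libraries and 696 to 789 in control libraries, and those of dendritic cells to 3732 to 5128 in cKOHet libraries and 1478 to 1631 in control libraries. The ILC2 sum was mostly Gata3. Il13 averaged 312 ± 19.5 in cKOHet libraries and 15.3 ± 6.09 in control libraries. Arg1 averaged 272 ± 27.9 in cKOHet libraries and 15.7 ± 7.51 in control libraries (SD, n = 3 each). Il1rl1 averaged 61.1 in cKOHet libraries and 0.63 in control libraries, and passed the filter on low values only through the cKOHet libraries. All 4 ILC2 markers with a row were called higher. Macrophage markers summed to 141 to 184 in cKOHet libraries and 35.5 to 95.7 in control libraries. Hepatocyte markers summed to 271 to 654 in cKOHet libraries and 234 to 428 in control libraries. The hepatocyte sum was mostly Alb, which was not called, at 219 to 519 in cKOHet libraries and 141 to 303 in control libraries. Apoa2, Fgb and Trf averaged 1.6, 3.6 and 4.4 in cKOHet libraries and 8.4, 12.2 and 16.4 in control libraries, without overlap. These low genes were not tested, and the groups overlapped for the other hepatocyte markers. The dendritic cell sum was mostly Ccr9, a chemokine receptor that T cells also express, and the other 4 markers with a row summed to 507 to 583 in cKOHet libraries and 534 to 569.7 in control libraries. Among those 4, Itgax and Xcr1 were called higher and Bst2 lower. B cell markers summed to 18.8 to 55.1 in cKOHet libraries and 19.1 to 23.1 in control libraries, from 2 genes that went opposite ways: Cd22 was listed at 0.00 to 0.04 in cKOHet libraries and at 12.6 to 21.95 in control libraries, and Sdc1 was at 18.7 to 55.1 in cKOHet libraries and at 1.15 to 6.43 in control libraries. The sums of erythroid and platelet markers were 8.28 to 33.2 in cKOHet libraries and 1.14 to 7.35 in control libraries, and none of 9 neutrophil markers has a row. Xist was at 0.08 in cKOHet replicate 4 and at 1.17 in control replicate 4, against 4337 to 5657 in the other 4 libraries, and a term for those libraries changed no call among the 8 genes. In these bulk samples, fewer cells of a type and less RNA per cell cannot be told apart.

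Of the 8 genes, Ly6c2 and Cd44 were lower in cKOHet libraries, Cd7 was higher, and 5 did not pass the test. A gene was called where the adjusted p of limma, a linear model fitted to log2(normalised count + 1) across 11226 genes, was under 0.05. All 8 had passed the filter on low values, so 37.5% of them were called, against 21.4% of all genes tested. Among genes tested, 11.5% were called higher and 9.97% were called lower. The groups did not overlap for 4 of the 8 genes, 1 with cKOHet libraries above and 3 with them below, against 35.8% of genes tested (19.1% above and 16.7% below). With 3 libraries against 3, an exact two-sided permutation test cannot go below 0.1, which was its value for those 4 genes. The median log2 fold change of the 8 genes was -0.16, against 0.01 for all genes tested.

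**Figure D1:**
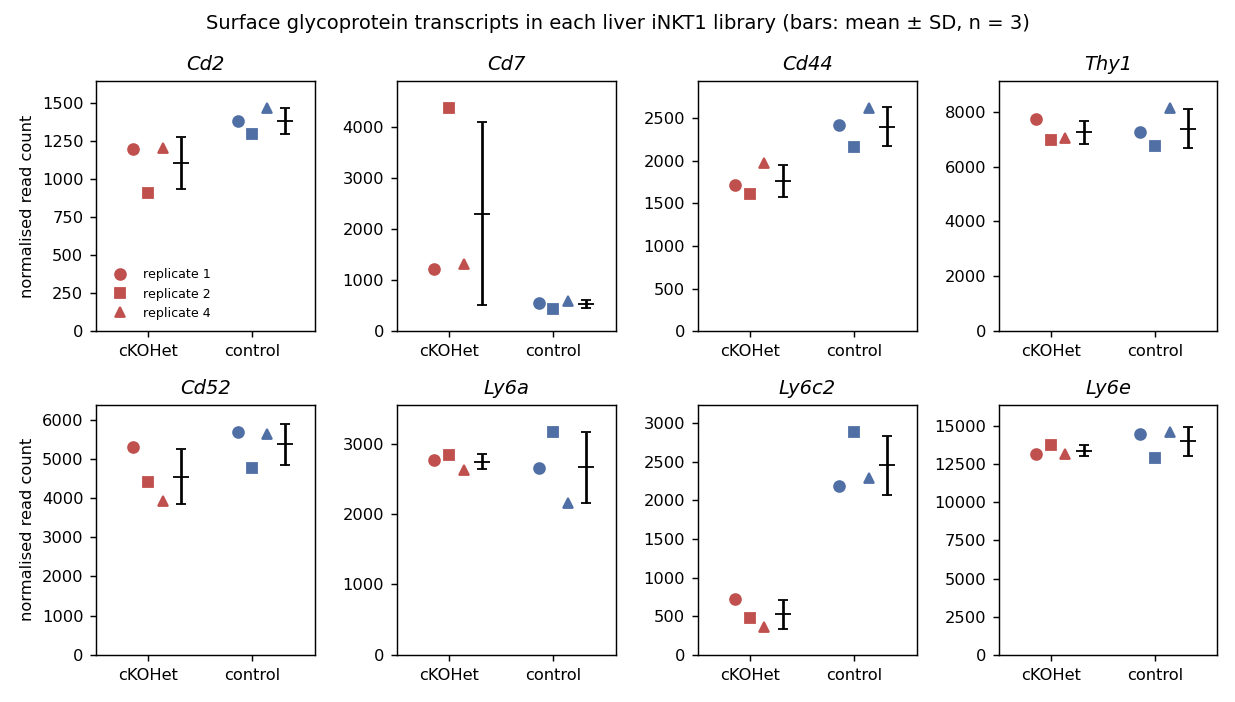
Normalised read counts of the 8 surface glycoprotein genes in each library, with cKOHet left of control in every panel; points are libraries and bars mark the mean and SD (n = 3 per group). Ly6c2 lay between 363 and 727 in cKOHet libraries and between 2181 and 2891 in control libraries, while the groups overlapped for Cd52, Thy1, Ly6a and Ly6e.

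Ly6c2 showed the largest change of the 8 genes. It encodes the GPI-anchored Ly6C antigen of memory T cells, monocytes and other leukocytes (ENSMUSG00000022584, mm10 chr15:75108158-75111970, minus strand). Its level was 727, 481 and 363 normalised counts in cKOHet libraries and 2181, 2891 and 2284 in control libraries. Every cKOHet library was below every control library, and the group means were 524 ± 186 in cKOHet libraries and 2452 ± 383 in control libraries (SD, n = 3 each), 4.68-fold lower in cKOHet libraries. The log2 fold change was -2.27 (SE 0.20, 95% confidence interval -2.69 to -1.85, limma adjusted p = 7.43e-07). It stayed called in all 18 alternatives, and ranged from -2.54 to -2.04 when each library was left out.

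Ly6c1, a neighbouring gene outside the 8 that encodes a near-identical Ly6C protein (ENSMUSG00000079018, chr15:75044018-75048830, minus strand), moved in the same direction. Its level was 92.7, 63.8 and 35.5 normalised counts in cKOHet libraries and 165, 207 and 211 in control libraries, with no overlap (log2 fold change -1.68, SE 0.30, limma adjusted p = 0.000692). The start of the coding sequence shows how close these genes are. The first 120 coding bases from GENCODE M21 transcripts are given, with capitals in Ly6c1 and Ly6a at each base that differs from Ly6c2, 6 in Ly6c1 and 10 in Ly6a.
Ly6c2: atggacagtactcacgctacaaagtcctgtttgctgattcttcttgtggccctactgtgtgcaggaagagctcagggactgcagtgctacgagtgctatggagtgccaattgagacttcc
Ly6c1: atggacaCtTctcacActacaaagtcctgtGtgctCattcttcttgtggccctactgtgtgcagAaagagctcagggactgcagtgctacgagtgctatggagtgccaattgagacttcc
Ly6a: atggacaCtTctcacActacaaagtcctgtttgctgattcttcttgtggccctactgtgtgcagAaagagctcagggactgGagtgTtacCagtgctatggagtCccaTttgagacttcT
Over the whole coding sequence, identity to Ly6c2 was 97.7% for Ly6c1 (384 of 393 alignment columns), 81.6% for Ly6a and 50.9% for Ly6e. Of the 50-base windows of Ly6c2 transcript, 33% occurred exactly in another gene and 32.6% in Ly6c1. The share for Ly6a was 10%, and for the other 6 genes it was 0. How reads that match both Ly6c genes were counted is not given in the sources used here, so the split between them is uncertain. Their sum averaged 588 ± 214 in cKOHet libraries and 2647 ± 398 in control libraries (SD, n = 3 each), 4.50-fold lower in cKOHet libraries. Ly6c1 made up 11.3%, 11.7% and 8.9% of that sum in cKOHet libraries and 7.04%, 6.67% and 8.47% in control libraries. The summed level of 4 endothelial cell markers with a row, of 9 listed, was 84.4 to 149 in cKOHet libraries and 398 to 411 in control libraries. Ly6c1 is itself one of these markers, and Pecam1, the adhesion molecule CD31, had 51.4, 42.5 and 36.5 normalised counts in cKOHet libraries and 220, 197 and 172 in control libraries. Eng was at 0.04 to 5.53 in cKOHet libraries and at 6.34 to 14.7 in control libraries, and Stab2 at 1.01 to 12.4 in cKOHet libraries and at 0.04 to 3.67 in control libraries, and neither passed the filter. Cdh5, Kdr, Tek, Clec4g and Lyve1 have no row in the table. The part of these cells in the Ly6c2 result was not tested.

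The start regions of Ly6c2 and Ly6c1 are shown because both genes were lower in cKOHet libraries. The windows run from 250 bases before to 50 bases after the transcription start, on the minus strand of GRCm38.p6. They come from the set of RefSeq windows used here, which covered 2 of the 8 genes, Ly6c2 and Cd44. Capitals mark AGGAAGT, a core shared by Ets-family sites, searched on both strands.
Ly6c2, chr15:75111922-75112221: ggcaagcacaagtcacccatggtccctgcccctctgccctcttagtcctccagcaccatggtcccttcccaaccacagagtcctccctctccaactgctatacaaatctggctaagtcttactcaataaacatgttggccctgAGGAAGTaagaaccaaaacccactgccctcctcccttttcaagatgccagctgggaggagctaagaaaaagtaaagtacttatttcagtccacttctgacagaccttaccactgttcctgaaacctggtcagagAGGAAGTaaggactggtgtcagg
Ly6c1, chr15:75048788-75049087: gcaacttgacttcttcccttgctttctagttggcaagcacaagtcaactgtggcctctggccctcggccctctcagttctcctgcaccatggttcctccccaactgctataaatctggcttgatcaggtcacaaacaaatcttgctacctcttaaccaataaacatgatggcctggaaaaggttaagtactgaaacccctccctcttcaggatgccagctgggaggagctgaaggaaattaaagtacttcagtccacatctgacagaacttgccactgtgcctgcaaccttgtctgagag
The windows were 62.3% identical over the alignment (208 of 334 columns). The Ly6c2 window held 2 matches and the Ly6c1 and Cd44 windows held 0, while a second annotated Ly6c1 start held 1. AGGAAGT was chosen after the sequences were seen, and 9.35% of the 32851 RefSeq windows held at least 1 match and 0.645% held 2 or more. The longer letters CCGGAAGT and CAGGAAGT (Ets), AGGTGTGA (T-box) and TTCNNNGAA (STAT), and an interferon response motif, had no match in any of these windows. They were present in 3.89%, 3.33%, 1.28%, 8.3% and 3.44% of all windows in that order. A match is a run of letters and does not show binding.

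Ly6a and Ly6e, the other Ly6 genes of the set, did not pass the test. Ly6a, the stem-cell antigen Sca-1 that interferon induces in T cells (ENSMUSG00000075602, chr15:74994877-74998031, minus strand), had 2762, 2836 and 2628 normalised counts in cKOHet libraries and 2656, 3172 and 2160 in control libraries. The cKOHet values lay inside the control range, with a log2 fold change of 0.06 (95% confidence interval -0.23 to 0.35, limma adjusted p = 0.82). Ly6e, a broadly expressed member of the family (ENSMUSG00000022587, chr15:74955051-74959905, plus strand), had 13146, 13768 and 13171 normalised counts in cKOHet libraries and 14454, 12866 and 14618 in control libraries. These ranges also overlapped, with a log2 fold change of -0.06 (95% confidence interval -0.36 to 0.23, limma adjusted p = 0.808). Along chromosome 15 the tested genes of the cluster ran Ly6e, Ly6a, Ly6c1 and Ly6c2, with gaps of 35, 46 and 59.3 kb, so the called genes were adjacent.

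Within each library, Ly6c2 was set against its relatives as a difference of log2 levels. Ly6c2 minus Ly6a was -1.92, -2.56 and -2.85 in cKOHet libraries and -0.28, -0.13 and 0.08 in control libraries, a group difference of -2.33. Ly6c2 minus Ly6e was -4.17, -4.84 and -5.18 in cKOHet libraries and -2.73, -2.15 and -2.68 in control libraries, a group difference of -2.21. Neither contrast overlapped between the groups, and the exact two-sided permutation p was 0.1 for each, the smallest this design allows. These contrasts were not planned and reuse the levels given above. As Ly6a and Ly6e differed little between the groups, the contrasts repeat the Ly6c2 difference and are no separate support for it.

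Cd7 was the 1 gene of the set called higher. CD7 is an immunoglobulin-superfamily protein of T and NK cells, whose human form binds galectin-1 (ENSMUSG00000025163, chr11:121036747-121039418, minus strand). Its level was 1220, 4368 and 1308 normalised counts in cKOHet libraries and 550, 441 and 589 in control libraries. All cKOHet libraries were above all control libraries, and cKOHet replicate 2 was far above the other 2 of its group. Means were 2299 ± 1793 in cKOHet libraries and 527 ± 76.6 in control libraries (SD, n = 3 each), with a log2 fold change of 1.87 (SE 0.34, 95% confidence interval 1.15 to 2.58, limma adjusted p = 0.000802). Without cKOHet replicate 2 it was 1.27 (limma adjusted p = 4.26e-05). The adjusted p was 0.107 with a robust variance model and 0.0502 without a mean-variance trend, so the call was lost in both.

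Some markers of other lymphocytes were also higher in cKOHet libraries. Cd8a, a CD8 co-receptor chain, had 237, 1657 and 440 normalised counts in cKOHet libraries and 20.1, 10.7 and 12.8 in control libraries, and was also highest in cKOHet replicate 2. Cd8b1, the other CD8 chain, had 15.1, 35.4 and 13.6 in cKOHet libraries and 3.56, 31.5 and 16.9 in control libraries, and was not called. Cd7 is itself among 7 NK and ILC1 markers, and the other 6 summed to 357, 299 and 274 in cKOHet libraries and 128, 111 and 162 in control libraries. Of these 6, Klrb1b, Klra8, Tyrobp and Eomes were called higher and Fcer1g was not called, while Ncr1, which did not pass the filter, was at 5.52 to 7.05 in cKOHet libraries and at 8.45 to 9.47 in control libraries. Klra8 passed the filter only through the cKOHet libraries, and the groups overlapped for Tyrobp and Eomes. The part of such cells in the Cd7 result was not tested. An antisense gene, Gm11775, overlaps Cd7 and had 9.07, 28.2 and 6.28 normalised counts in cKOHet libraries and 7.34, 3.23 and 4.29 in control libraries. It did not pass the filter, and since strand use in counting is not given, reads of the pair cannot be told apart.

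Cd44 was lower by a smaller amount. CD44 is the hyaluronan receptor, a marker of activated and memory T cells (ENSMUSG00000005087, chr2:102811141-102901665, minus strand). Its level was 1710, 1608 and 1977 normalised counts in cKOHet libraries and 2417, 2163 and 2621 in control libraries, and no cKOHet library reached a control one. Means were 1765 ± 191 in cKOHet libraries and 2401 ± 229 in control libraries (SD, n = 3 each), with a log2 fold change of -0.44 (SE 0.12, 95% confidence interval -0.71 to -0.18, limma adjusted p = 0.0166). The limma call was lost without cKOHet replicate 2 (-0.38, adjusted p = 0.0773), control replicate 1 (-0.44, adjusted p = 0.0595) or control replicate 4 (-0.38, adjusted p = 0.076), and without a mean-variance trend (adjusted p = 0.106).

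Cd2 did not pass the test. CD2 is the adhesion and costimulatory receptor that binds CD48 in the mouse (ENSMUSG00000027863, chr3:101275899-101287939, minus strand). Its level was 1199, 910 and 1207 normalised counts in cKOHet libraries and 1384, 1295 and 1469 in control libraries, so the groups did not overlap. The log2 fold change was -0.33 (SE 0.13, 95% confidence interval -0.61 to -0.05, limma adjusted p = 0.0866). It fell under the threshold with upper-quartile scaling (-0.38, adjusted p = 0.0469), quantile normalisation (-0.37, adjusted p = 0.0435) and library weights (-0.38, adjusted p = 0.0434) in limma.

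Thy1 and Cd52 were not called either. Thy-1, or CD90, is a GPI-anchored glycoprotein found on nearly all mouse T cells (ENSMUSG00000032011, chr9:44043384-44048579, plus strand). It had 7727, 6982 and 7038 normalised counts in cKOHet libraries and 7266, 6751 and 8138 in control libraries, with a log2 fold change of -0.02 (95% confidence interval -0.30 to 0.25, limma adjusted p = 0.927). CD52 is a very short GPI-anchored glycopeptide of lymphocytes (ENSMUSG00000000682, chr4:134082448-134095082, minus strand). It had 5315, 4401 and 3928 normalised counts in cKOHet libraries and 5697, 4776 and 5646 in control libraries, with a log2 fold change of -0.25 (95% confidence interval -0.54 to 0.05, limma adjusted p = 0.238). Both pairs of groups overlapped. The Cd52 locus overlaps Crybg2 on the other strand, which had 771, 717 and 721 normalised counts in cKOHet libraries and 277, 359 and 342 in control libraries (log2 fold change 1.18, limma adjusted p = 1.31e-05), and the reads of the overlap cannot be assigned without strand.

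**Figure D2:**
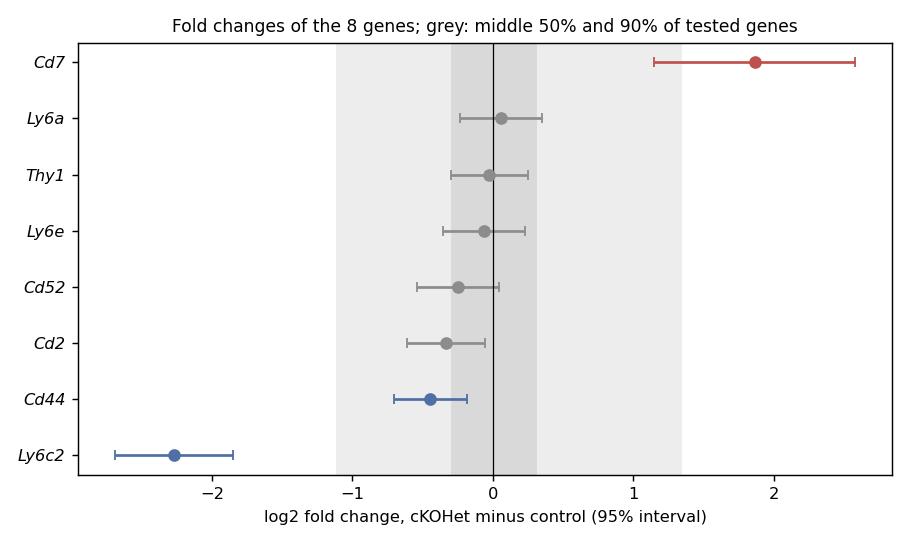
Log2 fold change (cKOHet minus control) of the 8 genes with 95% confidence intervals from limma; the grey bands mark the spread of fold changes over all 11226 genes tested. Ly6c2 at -2.27 lay below the 5th percentile of -1.11 and Cd7 at 1.87 above the 95th percentile of 1.34, while Cd2, Cd44 and Cd52 were negative by at most 0.44.

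**Figure D3:**
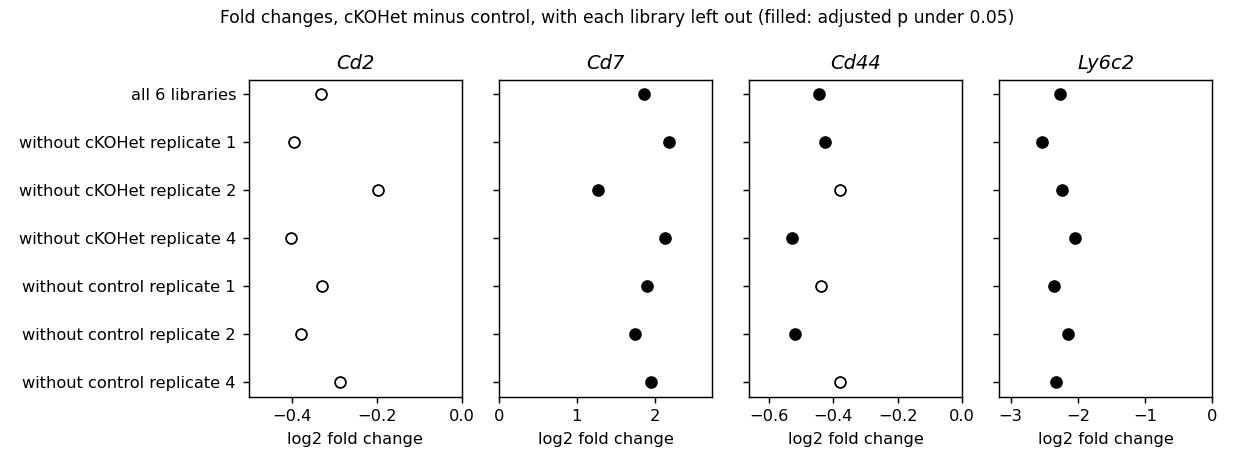
Log2 fold change (cKOHet minus control) of Cd2, Cd7, Cd44 and Ly6c2 when each of the 6 libraries was left out, beside the value from all libraries. Ly6c2 stayed between -2.54 and -2.04, and Cd7 was 1.27 without cKOHet replicate 2.

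Levels of different genes were compared as normalised counts per kb of merged exon. In cKOHet libraries the order was Cd52 (3831 ± 594), Ly6e (3531 ± 93.0), Thy1 (2420 ± 138), Ly6a (2275 ± 87.6), Cd7 (2029 ± 1582), Cd2 (635 ± 97.1), Cd44 (261 ± 28.1) and Ly6c2 (191 ± 67.8; SD, n = 3). In control libraries Cd52 (4526 ± 436), Ly6e (3694 ± 256), Thy1 (2466 ± 234) and Ly6a (2209 ± 420) again came first, followed by Ly6c2 (895 ± 140), Cd2 (794 ± 49.96), Cd7 (465 ± 67.7) and Cd44 (354 ± 33.9; SD, n = 3). By merged exon length, Ly6c2 was thus last of the 8 in cKOHet libraries and above Cd2, Cd7 and Cd44 in control libraries. Cd7 was above Cd2, Cd44 and Ly6c2 in cKOHet libraries and above Cd44 alone in control libraries. The merged length of Ly6c2 was 2740 bases, against 822 bases for the transcript used for the 50-base windows. For Cd44 these lengths were 6776 and 5614 bases, so the place of Ly6c2 in the order depends on the length used. Neighbours whose library values overlapped were Cd52 and Ly6e, Thy1 and Ly6a, Ly6a and Cd7, and Cd44 and Ly6c2 in cKOHet libraries, and Thy1 and Ly6a, and Ly6c2 and Cd2 in control libraries. By mean normalised count, Ly6e stood at the 99.9th percentile of genes in both groups, Ly6c2 at the 82.4th in cKOHet libraries and the 97.5th in control libraries, and Cd7 at the 97.3rd in cKOHet libraries and the 82.9th in control libraries.

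Genes that act with these glycoproteins were described as lists. The list for CD2 held 8 genes: its ligand, intracellular partners and the surface protein gene Cd53. Of these 8, 0 were called higher and 4 (50%) lower, against 11.5% and 9.97% of all genes tested, with a median log2 fold change of -0.27. Cd53 was 1 of those 4 (log2 fold change -0.39, limma adjusted p = 0.0359). It is also counted among the other lymphocyte surface glycoprotein genes below. Fyn, a Src-family kinase, averaged 1619 ± 178 normalised counts in cKOHet libraries and 2852 ± 83.3 in control libraries (SD, n = 3 each; log2 fold change -0.82, limma adjusted p = 9.48e-05). Pstpip1, an adaptor that binds the CD2 tail, averaged 707 ± 58.5 in cKOHet libraries and 1137 ± 80.9 in control libraries (SD, n = 3 each), and Cd2ap, another CD2 adaptor, 53.4 ± 24.5 in cKOHet libraries and 151 ± 24.9 in control libraries (SD, n = 3 each). Cd48, the mouse CD2 ligand, was not called. Of 3 CD7 ligand genes, 1 had a row: Lgals1, which encodes galectin-1, had 8111, 8430 and 7124 normalised counts in cKOHet libraries and 1090, 1106 and 939 in control libraries (log2 fold change 2.92, SE 0.12, limma adjusted p = 3.59e-10), with no overlap.

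Of 11 tested genes for CD44 ligand synthesis, shedding and cytoskeletal linkage, 2 were called higher and 0 lower. Iqgap1, a scaffold protein that links CD44 to actin, averaged 5376 ± 639 normalised counts in cKOHet libraries and 3385 ± 272 in control libraries (SD, n = 3 each; log2 fold change 0.66, limma adjusted p = 0.00128). Stab1, a scavenger receptor, averaged 30.8 ± 14.8 in cKOHet libraries and 5.51 ± 3.63 in control libraries (SD, n = 3 each), passed the filter only through the cKOHet libraries, and its limma call was lost without cKOHet replicate 4 (log2 fold change 1.98, adjusted p = 0.0588). The linkers Ezr, Msn and Rdx and the sheddases Adam10 and Adam17 were not called.

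Genes that build the GPI anchor were called in few cases. Of 28 tested genes of GPI anchor synthesis, 1 was called higher and 1 lower, with a median log2 fold change of 0.03. Pign averaged 191 ± 16.7 normalised counts in cKOHet libraries and 116 ± 3.68 in control libraries (SD, n = 3 each; limma adjusted p = 0.0114), and lost its call without cKOHet replicate 2 (adjusted p = 0.0531). Pigx averaged 117 ± 40.3 in cKOHet libraries and 187 ± 28.7 in control libraries (SD, n = 3 each; limma adjusted p = 0.0487), and lost its call in 5 of the 6 fits that left out a library. Of 7 tested genes for other GPI-anchored proteins, 1 was called higher and 3 lower. Nt5e, the ectoenzyme CD73, had 818, 913 and 855 normalised counts in cKOHet libraries and 206, 229 and 146 in control libraries (log2 fold change 2.17, limma adjusted p = 1.99e-07). Izumo1r, folate receptor 4, averaged 14.8 ± 4.92 in cKOHet libraries and 456 ± 115 in control libraries (SD, n = 3 each; log2 fold change -4.87, limma adjusted p = 1.54e-08). Art2b, an ADP-ribosyltransferase of mouse T cells, averaged 394 ± 64.8 in cKOHet libraries and 1108 ± 84.4 in control libraries (SD, n = 3 each; log2 fold change -1.50, limma adjusted p = 1.48e-06).

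Of 33 other genes of the Ly6 and uPAR family, 6 had a row and 3 were tested, all called lower in cKOHet libraries. Besides Ly6c1 these were Ly6g5b, with 44.3, 95.3 and 20.9 normalised counts in cKOHet libraries and 383, 372 and 362 in control libraries (log2 fold change -3.03, limma adjusted p = 2.57e-05), and Lypd6b. Lypd6b was listed at 0.00 to 0.05 in cKOHet libraries and at 23.1 to 34.5 in control libraries, and passed the filter only through the control libraries.

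Among 34 other lymphocyte surface glycoprotein genes, 10 (29.4%) were called higher and 8 (23.5%) lower, with a median log2 fold change of 0.06, and 1 of the 10, Cd200, passed the filter only through the cKOHet libraries. Cd38, an ectoenzyme, averaged 155 ± 34.7 normalised counts in cKOHet libraries and 868 ± 226 in control libraries (SD, n = 3 each; log2 fold change -2.46, limma adjusted p = 5.12e-07). Ly9, a SLAM-family receptor, averaged 1294 ± 214 in cKOHet libraries and 2790 ± 184 in control libraries (SD, n = 3 each; limma adjusted p = 1.67e-05), and Emb, embigin, 1078 ± 127 in cKOHet libraries and 415 ± 83.9 in control libraries (SD, n = 3 each; limma adjusted p = 9.87e-06). Of 15 tested genes of antigen experience and memory, 5 (33.3%) were called higher, and 3 (20%) lower. Klrg1, an inhibitory receptor of effector lymphocytes, averaged 253 ± 134 in cKOHet libraries and 23.3 ± 3.88 in control libraries (SD, n = 3 each; log2 fold change 3.28, limma adjusted p = 3.05e-06). Cx3cr1, the fractalkine receptor, averaged 112 ± 30.6 in cKOHet libraries and 4.90 ± 4.24 in control libraries and passed the filter only through the cKOHet libraries, and Cd69, an activation and residency marker, 816 ± 120 in cKOHet libraries and 443 ± 34.9 in control libraries (SD, n = 3 each). Interferon-stimulated genes, a class to which Ly6a belongs in other settings, had 1 of 39 (2.56%) called higher, Mx1, and 27 (69.2%) lower. Their median log2 fold change was -0.69, and Gbp7, a guanylate-binding protein, averaged 807 ± 34.96 normalised counts in cKOHet libraries and 1548 ± 126 in control libraries (SD, n = 3 each). Ifi44 averaged 1.31 ± 0.64 in cKOHet libraries and 108 ± 57.2 in control libraries and, like Oas2, passed the filter only through the control libraries, which leaves 25 of the 27. Rtp4 averaged 131 ± 40.4 in cKOHet libraries and 488 ± 121 in control libraries (SD, n = 3 each).

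**Figure D4:**
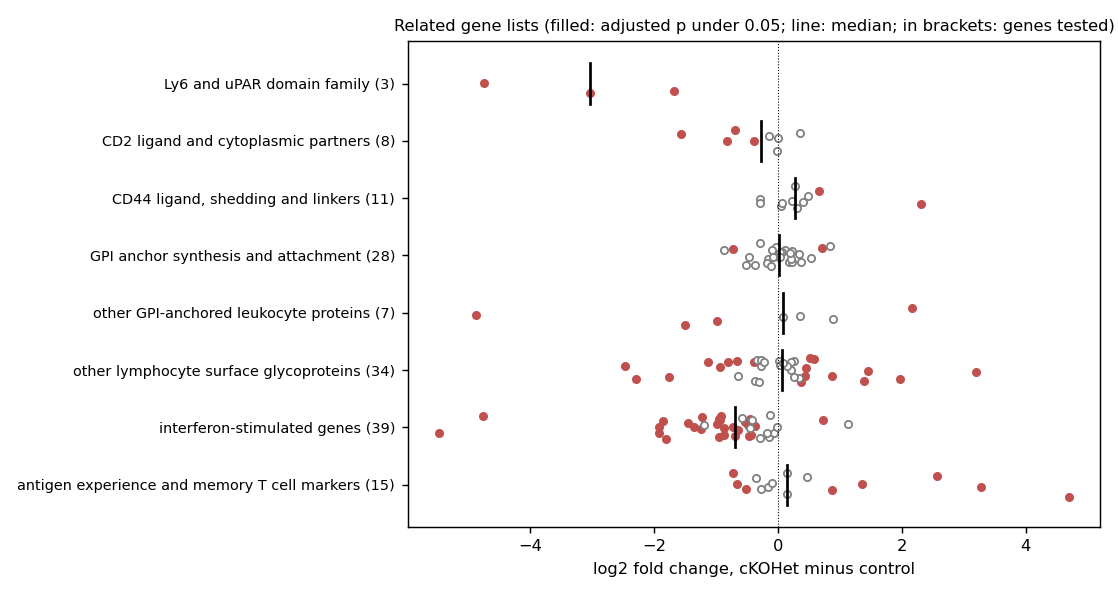
Log2 fold change (cKOHet minus control) of every tested gene in the related gene lists, without the CD7 ligand list, which had 1 tested gene. Each point is a gene and the bar is the list's median. Interferon-stimulated genes had a median of -0.69 and GPI anchor synthesis genes a median of 0.03. The 8 surface glycoproteins, with a median of -0.16, are not drawn.

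Genes with the most similar profile over the 6 libraries were found for the 3 called genes among 8223 genes with a mean of at least 50, by Pearson's r of log2 levels. The libraries share the genotype difference, so r within groups is given beside it, and both are descriptions. As the genes were picked by r over the same 6 libraries, a high r within groups is no separate check. For Ly6c2 these were Polr3a, Ccr4 and Dennd2d, each with r at or above 0.99 over the 6 libraries and 0.96, 0.93 and 0.99 within groups in that order. Ccr4, a chemokine receptor, averaged 19.2 ± 10.5 normalised counts in cKOHet libraries and 211 ± 49.8 in control libraries (SD, n = 3 each). For Cd44 they were Gadd45b, the integrin chain gene Itgb2 and Foxn3, with r within groups of 0.996, 0.99 and 0.97. For Cd7 they were Acd, Ddx28 and Plk3, with r within groups of 0.98, 0.97 and 0.95. In all, 17 genes reached an r of 0.99 with Ly6c2, 4 with Cd44 and 1 with Cd7. Polr3a, Acd and Itgb2 were themselves not called (limma adjusted p = 0.114, 0.0764 and 0.175).

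Of the 13 nearest tested neighbours outside the set, 3 were called higher, 4 lower and 6 neither. Over all genes tested, 11.5% were called higher and 9.97% lower. Genes that were not tested, not protein-coding or only predicted were skipped, so some neighbours were far away. Arhgef12 lay 936.1 kb from Thy1, Cd101 246.3 kb from Cd2 and Them6 230.4 kb from Ly6e. Ly6c1 and Them6 beside the Ly6 genes, Cd101 beside Cd2 and Rnf26 beside Thy1 were lower, and Csnk1d beside Cd7, Ubxn11 beside Cd52 and Arhgef12 beside Thy1 were higher. The neighbours of Cd44, Trim44 and Pdhx, were not called. Several of these calls were lost when a library was left out: Csnk1d in 5 of 6 such fits, Them6 in 4 and Rnf26 in 2. The limma call of Csnk1d was also lost with TMM scaling (adjusted p = 0.0534), upper-quartile scaling (0.064), no filter on low values (0.0505), no mean-variance trend (0.155) and the replicate block (0.0551).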

How the data were processed

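Per the labels' protocols, RNeasy mini kits gave the RNA of sorted liver cells and the Ovation Ultralow system the libraries. The deposited signal per Ensembl gene is a table of read counts normalised by the authors, and its values are not whole numbers. Per the submitters' processing notes, the build was mm10 and the tools included STAR, DESeq2, HTSeq 0.6.1 and Trimmomatic 0.33. The sources used here do not give their settings, strand use or handling of reads that match several genes. No gene has a maximum under 5.22, so genes with few reads are absent from the table. GENCODE M21 named 12870 of the 12942 identifiers.

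The log2(value + 1) of genes that reached 10 in 3 or more of the 6 libraries was tested with limma 3.58.1 in R 4.3.3 (mean-variance trend), cKOHet minus control, with Benjamini-Hochberg adjustment over 11226 genes. Count models were not run, since the values are not counts. Fold changes on this scale understate the change of low genes. As the labels name no mice, the p-values reflect only how these libraries spread, which may be technical. The procedure was tested on simulated data.

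The 8 genes, and the related gene lists, were chosen with earlier results of these data known. Named genes were the 8, Ets1 and Tbx21, up to 3 called genes of smallest adjusted p per list, the 3 most alike profiles, the nearest tested neighbours and markers of other cells. Other genes named (Cd48, Cd53, Ezr, Msn, Rdx, Adam10, Adam17, Mx1, Oas2, Cd200, Crybg2 and Gm11775) were chosen after their values were seen, as was the motif AGGAAGT. The contrasts of Ly6c2 with Ly6a and Ly6e were not planned. Protein features planned for these genes were not used here.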

Additional observations from a re-analysis of the deposited data

How the results depend on the processing

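Ly6c2 stayed called and lower in all 18 alternatives. Without a mean-variance trend, 0 of the 8 genes were called higher and 1 lower, with Cd7 at 1.87 (limma adjusted p = 0.0502) and Cd44 at -0.44 (adjusted p = 0.106). With the robust variance model, 0 were called higher, with Cd7 at 1.87 (limma adjusted p = 0.107). At an adjusted p under 0.01, 1 was called lower, and 1476 genes were called in the whole table. Cd2 passed the limma threshold at -0.38 with upper-quartile scaling, -0.37 with quantile normalisation and -0.38 with library weights. Under quantile normalisation Thy1 turned to 0.0089 and Ly6e to 0.0271.

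With each library left out, 1 to 2 of the 8 genes were called lower, and it was 1 without cKOHet replicate 2, control replicate 1 or control replicate 4. Log2 fold changes then ranged from -0.53 to -0.38 for Cd44, -0.0866 to 0.0482 for Thy1, -0.0827 to 0.19 for Ly6a, -0.28 to 0.31 for Pdhx and -0.18 to 0.0431 for Trim44. The cause of these changes was not tested. The scalings moved the median of all genes by at most 0.0448 (upper-quartile scaling).

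Libraries with the same replicate number correlated at 0.09, 0.09 and 0.05 after removal of group means, so the numbers were not taken to pair them, although every library correlated best with its own number. With the replicate block 2412 genes were called, and the 8 genes had 1 called higher and 2 lower, with Cd7 at 1.87 (limma adjusted p = 0.00118), Cd44 at -0.44 (adjusted p = 0.00977) and Ly6c2 at -2.27. Sequencing depth is unknown, and 3 libraries per group limit the precision.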
